A study of Mus musculus with 4 samples.

Results

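Fatty acid and triglyceride synthesis was followed here through 39 genes, in the liver and spleen of mice fed a nucleoprotein diet or a control diet. Their 69 probes, out of 41174 probes and 27670 genes on the array, were found by matching the gene name in the files, or the current symbol reached through the RefSeq accession, to a list of members. The mice were male C57BL/6J animals aged 7 weeks. The nucleoprotein group ate a purified diet in which 1.2% was a nucleoprotein product and 0.5% was nucleic acids, and the control group a purified diet that held 0.03%. Both groups were fed for 4 weeks, were then injected with lipopolysaccharide, a bacterial cell wall component that causes systemic inflammation, at 10 mg/kg, and gave up their organs 6 h later, so every value below is from injected animals. The housing notes name a chow (CE-2) in place of a purified diet, and the design text was followed here. RNA was pooled by diet within each organ, and how many mice went into each pool is not known here.

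The liver makes fatty acids from surplus carbohydrate. Citrate that leaves the mitochondrion is split into acetyl-CoA, acetyl-CoA carboxylase turns this into malonyl-CoA, and fatty acid synthase joins the units into palmitate with reducing power from NADPH. Elongases and desaturases then reshape palmitate, acyltransferases, lipins and diacylglycerol acyltransferases build triglyceride from it, and lipid droplet proteins store it. The transcription factors SREBP-1c, ChREBP and LXR alpha drive much of this program in hepatocytes, with insulin and glucose as the main signals.

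Expression was measured on 4 Agilent arrays of a single slide, 2 per organ, each carrying both diets in different dyes. Array 1 of an organ had the nucleoprotein pool in Cy5 (red) and array 2 had it in Cy3 (green). The labels number the pooled samples 1 and 2 without saying that they were pools of different mice, so the pair of arrays was read as a dye swap of 1 pool per diet. There is then no replicate check of a diet effect, the main values carry no test, and the SD beside a mean describes the spread of the 2 arrays, a gene's dye effect included. All diet ratios are log2 values of nucleoprotein over control, so a value below 0 means less signal in nucleoprotein mice. A gene stood by its brightest probe, was measurable when at least 1 diet gave signal well above background on each array, and was called when both arrays put it past 1.5-fold (0.585 in log2) in 1 direction. In bulk RNA, fewer cells of a type and less RNA per cell cannot be told apart.

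In liver, 3 genes for the supply of acetyl-CoA and NADPH were called lower under the nucleoprotein diet after loess. Acly, the enzyme that cleaves citrate to acetyl-CoA, was 1.85-fold lower in nucleoprotein than in control liver, at -0.89 ± 0.04 (SD, 2 arrays). Acss2, which makes acetyl-CoA from acetate, was 2.00-fold lower at -0.998 ± 0.42, and G6pdx, the first and NADPH-forming enzyme of the pentose phosphate route, was 1.99-fold lower at -0.99 ± 0.25. These 3 of 38 measurable members were called lower and 0 were called higher, where over all 16413 measurable genes 0.311% were called lower and 0.0122% higher. With median centring of the arrays in place of loess the means were -0.68 for Acly, -0.67 for Acss2 and -0.74 for G6pdx, and 0 members were called, since the single arrays then lay far apart. With the mean over all measurable probes Acss2 had a mean of -0.92 but was no longer called, as its second probe read -0.31 on array 1. In spleen, 0 of 32 measurable members were called in either direction, where 0.232% of 18139 genes were called lower and 0.209% higher.

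Most members read lower in nucleoprotein liver after loess, though not after median centring, and few passed the bound. Of the 38 measurable members, 31 had a mean ratio below 0, against 41.4% of all measurable genes. On both arrays 23 of the 38 lay below 0, against 13.5% of all genes, and 1 member, Elovl3, lay above 0 on both, against 20.6% of all genes. Over the 15315 genes measurable in both organs, ratios on the 2 liver arrays ran opposite in rank, with a Spearman correlation of -0.50. Over 32 members it was 0.28. A dye effect has opposite signs on the 2 arrays, and its part in these shares was not tested. The median over members was -0.19 (-0.17 on array 1 and -0.25 on array 2), beside 0.02 for all measurable genes. When each array was centred on its median instead of being fitted by loess, the member median turned to 0.05 and that of all genes moved to 0.17, so that 16 of 38 members lay below 0, against 16.5% of all genes, and 24 lay below the median of all genes. In spleen the member median was -0.02 (0.01 and -0.04 on the arrays), 7 of 32 members lay below 0 on both arrays against 20% of all genes, and 5 lay above 0 on both against 20.2%.

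**Figure D1:**
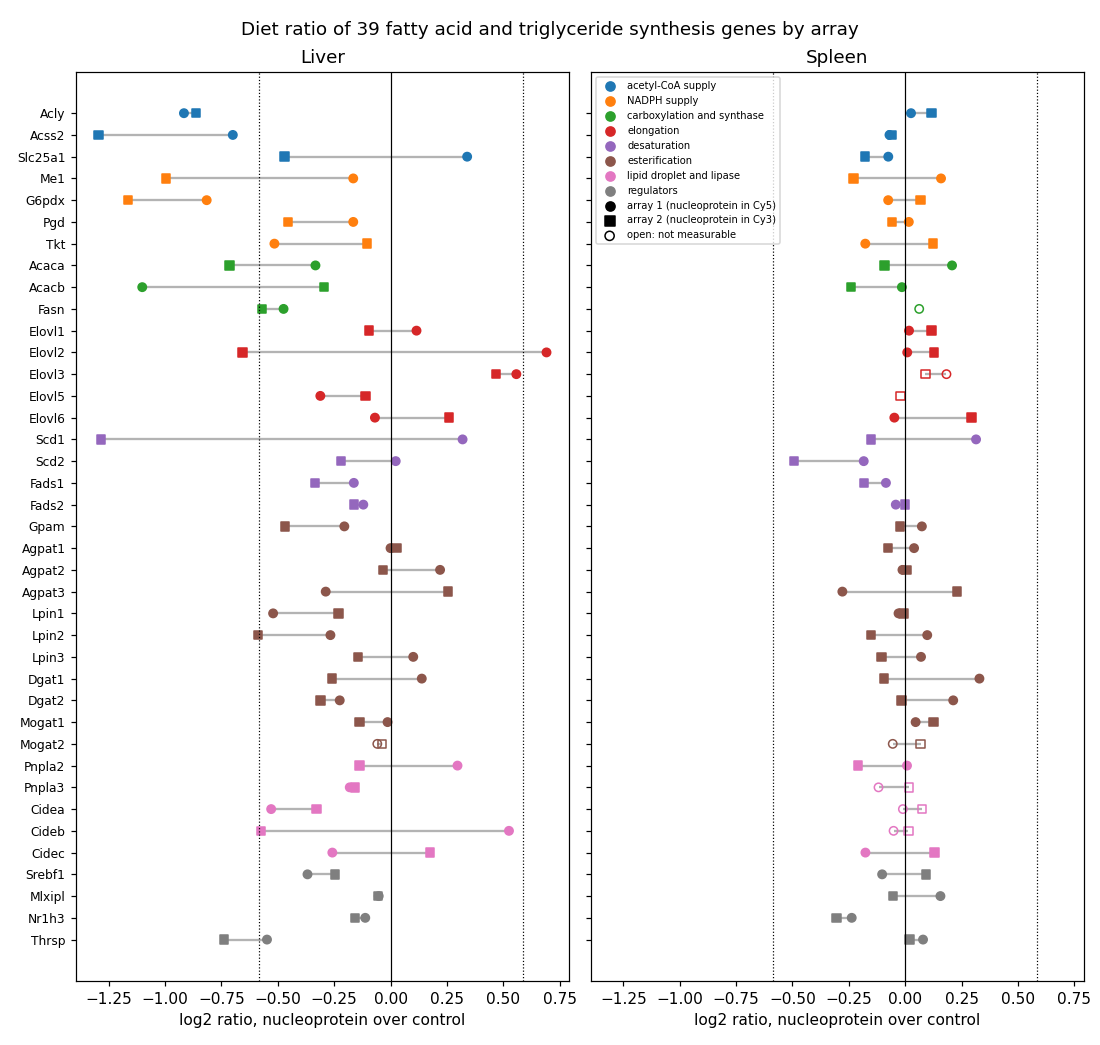
Diet ratio (log2, nucleoprotein over control) of the 39 genes in liver (left) and spleen (right), coloured by step, with circles for array 1, squares for array 2, open symbols where the gene was not measurable, and dotted lines at 1.5-fold. In liver Acly, Acss2 and G6pdx lie past the left line on both arrays and the member median is -0.19 (0.05 with median centring), while in spleen no member passes a line on both arrays.

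Signal from pancreatic acinar genes differed between the same liver pools. Of 24 acinar markers on the array, all were called lower in nucleoprotein liver, with a median of -3.61. They were among the 51 of 16413 genes (0.311%) called lower there. Their summed log2 level was 12.96 and 12.92 in nucleoprotein liver, with 21 of 24 above background on both arrays, and 16.94 and 16.99 in control liver, with 24 of 24 above background. The part of these acinar genes in the ratios of the synthesis genes was not tested. In spleen the acinar median was -0.99 and 16 of 24 were called lower, against 0.232% of all genes. Their summed level there was 13.79 and 13.66 in nucleoprotein and 14.91 and 14.86 in control. Adipocytes also make fat: of 12 adipocyte markers, 5 were measurable in liver with a median of 0.01 and means from -0.29 to 0.16. The summed level of the list was 13.72 and 13.83 in nucleoprotein and 13.84 and 13.57 in control liver. Adipoq, Lep, Retn, Plin1, Adrb3, Slc2a4 and Ucp1 were not measurable there. Hepatocyte markers were bright in the organ labelled liver, with 22 measurable in liver at a median of -0.03 (summed level 19.43 and 19.20 in nucleoprotein, 19.08 and 19.60 in control). That median joins 0.24 on array 1 and -0.41 on array 2. Of the 22, 20 were above 0 on array 1 and below 0 on array 2, and 0 kept 1 sign on both arrays.

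The steps before palmitate held the lowest ratios. Acetyl-CoA supply had a median of -0.89 over 3 genes, NADPH supply -0.45 over 4 and carboxylation and synthase -0.52 over 3. Across these 10 genes the median was -0.55 (-0.50 and -0.64 on the arrays), with 10 of 10 means below 0 and 9 of 10 below 0 on both arrays. The other 28 measurable members had a median of -0.09. With median centring the 10 genes stayed lower at -0.29, with 7 of 10 below 0 and 9 of 10 below the median of all genes. In spleen the same 3 steps had medians of -0.06, -0.02 and -0.04.

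Within acetyl-CoA supply, the log2 level of Acly (probe at chr11:100586242-100586300, mouse build mm7) was 8.60 and 8.42 in nucleoprotein liver on arrays 1 and 2, against 9.51 and 9.29 in control liver. After loess the readings of the liver pools did not overlap, and the ratio was nearly the same in both dye orientations, at -0.92 and -0.86. With median centring the ratio was 0.29 and -1.66. In spleen Acly read 8.49 and 9.11 in nucleoprotein and 8.47 and 8.99 in control, with ratios of 0.03 and 0.12. Acss2 (chr2:155303248-155303310) had levels of 11.42 and 11.20 in nucleoprotein liver, against 12.12 and 12.50 in control liver. Its ratio was further from 0 on array 2, at -1.30, than on array 1, at -0.70, and the spleen ratios were -0.07 and -0.06. Slc25a1, the mitochondrial citrate carrier that feeds Acly, gave opposite signs in the 2 liver orientations, at 0.34 and -0.47, so no direction could be assigned to it.

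The NADPH genes were below 0 on both liver arrays in 4 of 4 cases. G6pdx (chrX:69796259-69796318) had levels of 9.54 and 9.31 in nucleoprotein liver, against 10.36 and 10.48 in control liver, with ratios of -0.82 and -1.17. Its spleen levels were 11.25 and 11.31 in nucleoprotein and 11.33 and 11.24 in control, and the readings of the pools overlapped there. The mouse genome also holds an intronless copy of this gene, and whether the probe reads both was not tested. Me1, malic enzyme, which yields NADPH in the cytosol, had levels of 12.69 and 12.40 in nucleoprotein liver and 12.86 and 13.40 in control liver. Its ratios differed by orientation, at -0.17 and -0.995, and it was not called. Pgd, the next NADPH-forming step after G6pdx, stood at -0.17 and -0.46, and Tkt, transketolase of the non-oxidative branch, at -0.52 and -0.10. Median centring turned Pgd to 0.01 and Tkt to 0.07.

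Of the carboxylases and the synthase, none passed the bound on both arrays, and 3 of 3 lay below 0 on both. Fasn, fatty acid synthase (chr11:120916191-120916250), had levels of 14.47 and 14.31 in nucleoprotein liver, against 14.94 and 14.87 in control liver. Its ratios, -0.47 and -0.57, gave a mean of -0.52 ± 0.07, or 1.44-fold lower, just short of the bound, and median centring brought the mean to -0.10. In spleen its spot on array 2 was an outlier and was left out, and array 1 alone gave 0.06. A dimmer Fasn probe, measurable on all arrays, gave 0.21 and -0.10 in spleen and -0.16 and -0.73 in liver. Acaca, the cytosolic acetyl-CoA carboxylase, stood at -0.33 and -0.71. Acacb, the mitochondrial-surface carboxylase whose malonyl-CoA restrains fatty acid oxidation, had levels of 11.43 and 11.64 in nucleoprotein liver and 12.53 and 11.93 in control liver, with ratios of -1.10 and -0.29.

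**Figure D2:**
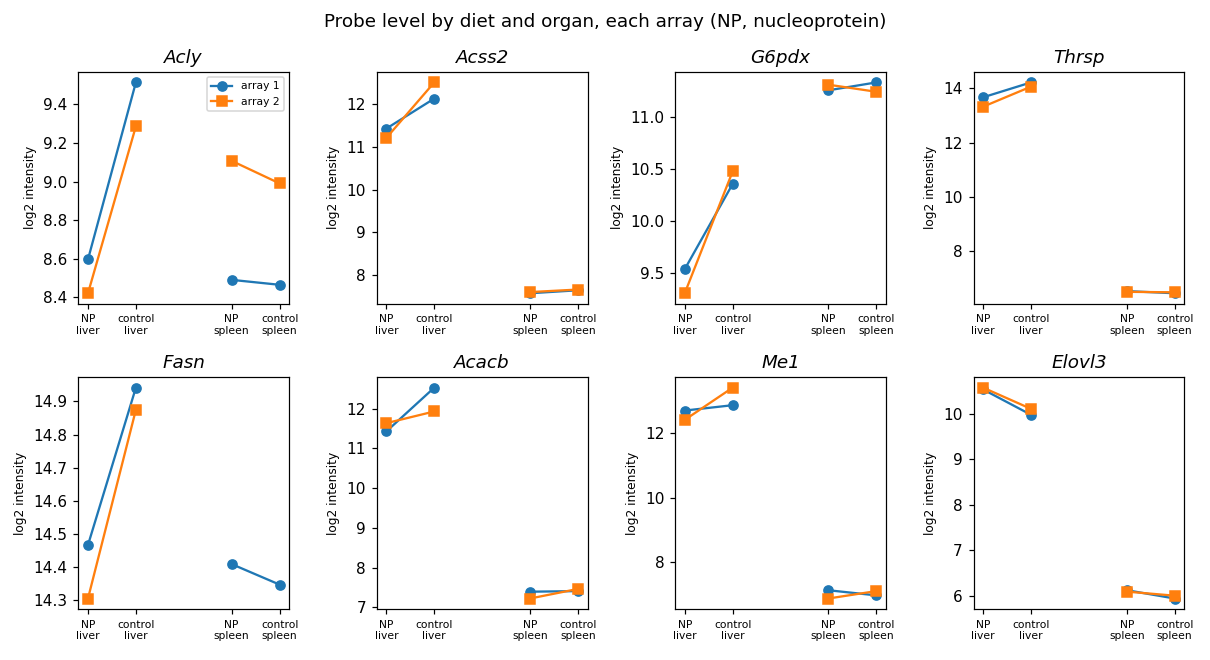
Log2 probe intensity of 8 members in the nucleoprotein (NP) and control pools of liver and spleen, with a line joining the pools of 1 array and an intensity axis of its own for each gene. On both liver arrays control lies above nucleoprotein for Acly, Acss2, G6pdx, Thrsp, Fasn, Acacb and Me1 (for Me1 by as little as a ratio of -0.17) and below it for Elovl3. In spleen the ratios of these genes run from -0.24 (Acacb, array 2) to 0.18 (Elovl3, array 1, not measurable), and the second Fasn array is missing.

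Elongation genes were centred near 0 in liver. The median of the 5 elongases was 0.02 in liver (0.38 with median centring, when that of all genes was 0.17), and 1 of 5 means lay below 0. Elovl3, an elongase of saturated very long chain fatty acids (chr19:46031906-46031965), had levels of 10.54 and 10.58 in nucleoprotein liver, above 9.98 and 10.11 in control liver. Its ratio of 0.51 ± 0.06, or 1.43-fold, was the highest among the members, and 7 of 16413 genes stood higher. It missed the 1.5-fold bound on both arrays (0.56 and 0.47). Elovl6, which lengthens palmitate to stearate, stood at -0.07 and 0.26, and Elovl5, an elongase of polyunsaturated fatty acids, at -0.31 and -0.11. Elovl2 read 0.69 on array 1 and -0.66 on array 2, the widest split among elongases, and Elovl1 0.11 and -0.09.

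Desaturation was close to the member median, at -0.20 over 4 genes in liver (0.03 with median centring). Scd1, the delta-9 desaturase that makes oleate, had the widest split between dye orientations of all members. Its levels were 15.38 and 14.50 in nucleoprotein liver and 15.06 and 15.78 in control liver, so that its ratio was 0.32 on array 1 and -1.28 on array 2, and the pools overlapped. Fads1 and Fads2, the delta-5 and delta-6 desaturases of polyunsaturated fatty acids, lay below 0 on both liver arrays (-0.16 and -0.33 for Fads1, -0.12 and -0.16 for Fads2). Scd2 had the most negative ratio of the members in spleen, at -0.34 ± 0.22 (-0.18 and -0.49), with levels of 9.33 and 9.07 in nucleoprotein and 9.52 and 9.56 in control spleen. It was not called.

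Esterification genes mostly sat nearer 0. Of 10 measurable genes 8 had a liver mean below 0 and 5 lay below 0 on both arrays, with a median of -0.07 (0.05 with median centring). Lpin1 and Lpin2, phosphatidate phosphatases that form diacylglycerol, stood at -0.38 ± 0.20 and -0.43 ± 0.23 in liver (-0.01 and -0.11 with median centring). Lpin2 had levels of 11.14 and 10.97 in nucleoprotein liver, against 11.41 and 11.55 in control liver. Gpam, the mitochondrial glycerol-3-phosphate acyltransferase that commits acyl-CoA to glycerolipid, stood at -0.21 and -0.47. Its mean of -0.34 was -1.13 in the deposited Feature Extraction log ratios, which add no offset, and its levels were dim, at 6.72 and 6.99 in nucleoprotein and 6.92 and 7.46 in control liver. Dgat2, the last enzyme of triglyceride synthesis, stood at -0.23 and -0.31 (mean 0.15 with median centring), while Dgat1, which catalyses the same reaction, split at 0.14 and -0.26. The acylglycerol-phosphate acyltransferases Agpat1, Agpat2 and Agpat3 had means of 0.01, 0.09 and -0.02, Lpin3 had -0.02 and Mogat1, a monoacylglycerol acyltransferase, -0.08. Mogat2, known from the intestine, was not measurable in either organ.

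Among lipid droplet and lipase genes the liver median was -0.04 over 5 (0.24 with median centring), with 2 below 0 on both arrays. Cidea, a lipid droplet fusion protein, stood at -0.53 and -0.33, with levels of 7.22 and 7.56 in nucleoprotein liver and 7.75 and 7.89 in control liver. Pnpla3, a lipase on lipid droplets, stood at -0.18 and -0.16. Both are dim, and the deposited log ratios put their means at -0.995 for Cidea and -1.15 for Pnpla3, against -0.43 and -0.17 here. Cideb, which acts in lipoprotein loading, gave 0.52 and -0.58, Cidec gave -0.26 and 0.17, and Pnpla2, the main triglyceride lipase, gave 0.30 and -0.14. In each of these 3 genes the sign differed between the dye orientations.

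All 4 regulators lay below 0 on both liver arrays, with a median of -0.22 (0.11 with median centring). Thrsp, a lipogenic nuclear protein that responds to thyroid hormone and carbohydrate (chr7:93448487-93448546), had levels of 13.67 and 13.33 in nucleoprotein liver, against 14.22 and 14.07 in control liver. Its ratios were -0.55 and -0.74 (mean -0.64 ± 0.13), so it passed 1.5-fold on array 2 only. Srebf1, which encodes SREBP-1, stood at -0.37 and -0.25, a mean of -0.31 that median centring turned to 0.04. Mlxipl, which encodes ChREBP, stood at -0.05 and -0.06, and Nr1h3, which encodes LXR alpha, at -0.11 and -0.16. Nr1h3 was also below 0 in spleen, at -0.24 and -0.31, with levels of 11.93 and 11.68 in nucleoprotein and 12.17 and 11.98 in control spleen.

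Genes with more than 1 probe let the ratios be read again from other positions. In liver 17 members had more than 1 measurable probe, 39 probes in all, and in 10 of them every probe, 24 in all, lay below 0 on both arrays. The like share over all genes was not counted. By the brightest probe alone it was 13.5% of all genes. Probe means ran from -0.998 to -0.85 for Acss2, from -0.62 to -0.58 for Me1, from -0.52 to -0.45 for Fasn and from -0.44 to -0.38 over 4 probes of Lpin1. Lpin1 probes at chr12:16591634-16591693 and chr12:16591654-16591713 overlap, so its 4 probes are not 4 separate readings. Dgat2 ran from -0.29 to -0.22 over 3 probes and Pgd from -0.31 to -0.23. For the carboxylases the probes disagreed, since those of Acaca ran from -0.52 to 0.03 over 3 probes and those of Acacb from -0.70 to -0.05. The probes nearer 0 were dim, with log2 levels of 6.71 and 6.48 for Acaca and 6.5 for Acacb, against 8.53 and 11.88 for the brightest probe of each. In spleen 13 members had more than 1 measurable probe, and Lpin1 alone had every probe below 0 on both arrays. Acly, G6pdx and Thrsp rest on 1 measurable probe each.

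**Figure D3:**
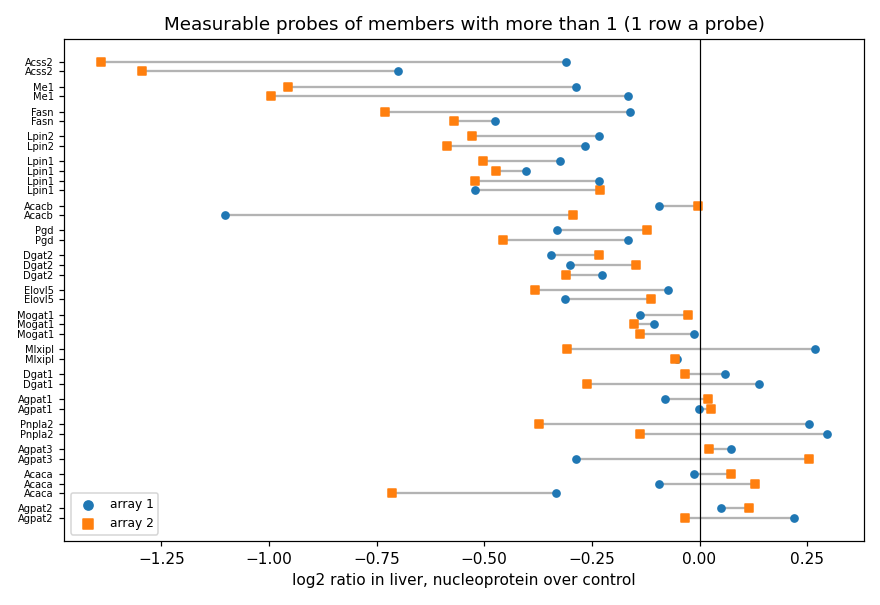
Liver diet ratio (log2, nucleoprotein over control) of each measurable probe of the members that had more than 1, 1 row a probe, with array 1 as circles and array 2 as squares. Every probe of Acss2, Me1, Fasn, Lpin1, Lpin2, Pgd and Dgat2 lies left of 0 on both arrays, while probes of Acaca fall on both sides.

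The members also differed in how much signal each organ gave. With the same probe compared between organs after Aquantile scaling, 25 of the 32 members measurable in both organs were brighter in liver and 13 of them by more than 8-fold, and the median difference of liver minus spleen was 0.75 on the log2 scale. It reached 7.32 for Thrsp, 6.40 for Elovl2, 5.81 for Me1 and 5.69 for Mlxipl, whose spleen levels of 6.35 to 7.03 lie near background, where the offset of 50 holds values up and makes the differences too small. Those brighter in spleen were Scd2 at -2.12, G6pdx at -1.36, Tkt at -1.20, Elovl1 at -0.56, Pgd at -0.48, Nr1h3 at -0.11 and Srebf1 at -0.05. Of the called genes, Acly was within 0.19 of equal in both organs and Acss2 was 4.18 higher in liver. The called genes thus spanned 4.18 to -1.36 in this difference of level.

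The diet ratio itself was lower in liver than in spleen for most members. Over the 32 members measurable in both organs, the median of liver minus spleen was -0.17 (-0.13 with nucleoprotein in Cy5 and -0.23 with it in Cy3), beside 0.02 over all 15315 genes, and with median centring it turned to 0.05, when that of all genes was 0.18. On both orientations 20 of 32 lay below 0, against 18.5% of all genes. Past 1.5-fold on both orientations were 4 members on the lower side, against 0.503% of all genes, and 0 on the higher side, against 0.0784%. They were Acly at -0.94 and -0.98, G6pdx at -0.74 and -1.23, Acss2 at -0.63 and -1.24, and Thrsp at -0.63 and -0.76. Comparing orientations like with like takes out a dye effect that both organs share, and across the 32 members the dye part of the ratio, as a description, correlated between liver and spleen with a Pearson r of 0.50 (0.49 over all genes). Members below 0 on both arrays in both organs were Acss2, Acacb, Fads1, Lpin1 and Nr1h3.

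**Figure D4:**
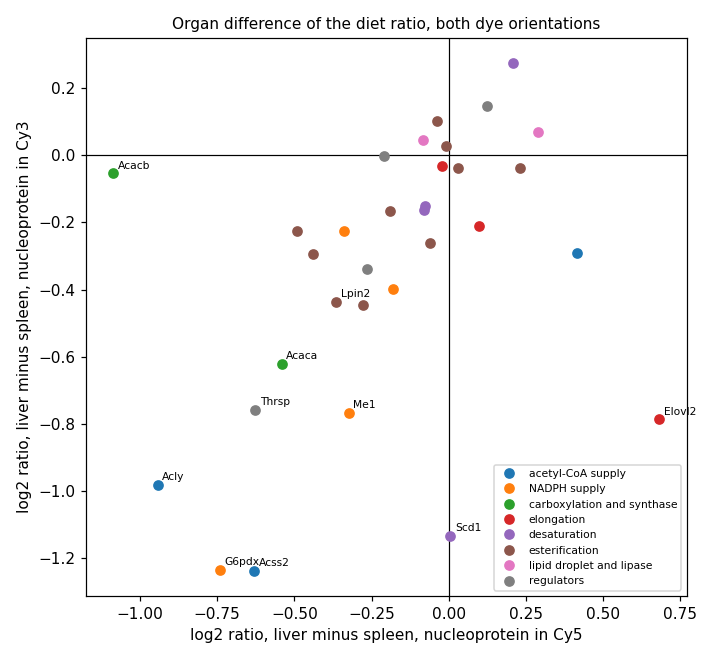
Liver minus spleen difference of the log2 diet ratio for the 32 members measurable in both organs, with nucleoprotein in Cy5 on the horizontal axis and in Cy3 on the vertical axis, coloured by step. Acly, G6pdx, Acss2 and Thrsp lie at or below -0.63 on both axes, and the member median is -0.17 (0.05 with median centring).

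Hepatocyte markers differed between the spleen pools. There 20 were measurable and 9 were called higher, against 0.209% of all genes. Their median was 0.59, with a summed level of 12.92 and 12.84 in nucleoprotein spleen, against 11.54 and 11.42 in control spleen. The part of these markers' source in the spleen ratios of the members was not tested. B cell markers had medians of -0.05 over 9 genes in spleen and -0.02 over 6 in liver.

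If the pools numbered 1 and 2 were separate pools, limma with 1 dye term for all 4 arrays allows a test. It has at most 1 residual degree of freedom per gene, beside 4.559 borrowed across genes. That residual compares the split between the 2 liver arrays with the split between the 2 spleen arrays. A dye effect that differs between organs thus enters it, and it is no plain spread between pools. The test left 2 of 38 members lower in liver after Benjamini-Hochberg adjustment, where 47 of all 16413 genes were lower and 1 was higher. Acly had an adjusted p of 0.0154 and G6pdx of 0.0433, while Acss2 at 0.068 and Thrsp at 0.0709 missed 0.05. At an unadjusted p under 0.05, 18 members were lower, where 2.39% of all measurable genes were lower. By the same limit 1 member, Elovl3, was higher, and the share of all genes that were higher was not counted. In spleen 0 of 32 members passed after adjustment, where 33 of 18139 genes were lower and 19 higher. There 2 members, Scd2 and Nr1h3, were lower at an unadjusted p under 0.05, against 2.28% of all genes. For liver minus spleen, Acly came closest with an adjusted p of 0.0558, so 0 of 32 members passed. Of all 15315 genes 35 were lower and 1 was higher. Unadjusted, 13 members were lower, against 1.97% of all genes.

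Further genes of the pathway stood near the median of all genes after loess. Of 51 other genes listed for it, such as fatty acid activation, further acyltransferases, droplet coat proteins and sterol sensing, 50 were on the array and 49 were measurable in liver. Their liver median was 0.01 (0.27 with median centring, when that of all genes was 0.17), and 24 of 49 lay below 0, against 41.4% of all genes. On both arrays 11 lay below 0, against 13.5% of all genes, and 8 above 0, against 20.6%. Of the 49, 0 were called, against 0.311% of all genes called lower and 0.0122% higher. In spleen 46 were measurable and 23 lay below 0, against 50.6% of all genes. There 0 were called, against 0.232% of all genes called lower and 0.209% higher. The brightest of them were Hacd3, a dehydratase of the elongation cycle, at -0.03 and 0.07 in liver, and Plin2, the main droplet coat protein of hepatocytes, at 0.32 and 0.04.

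**Figure D5:**
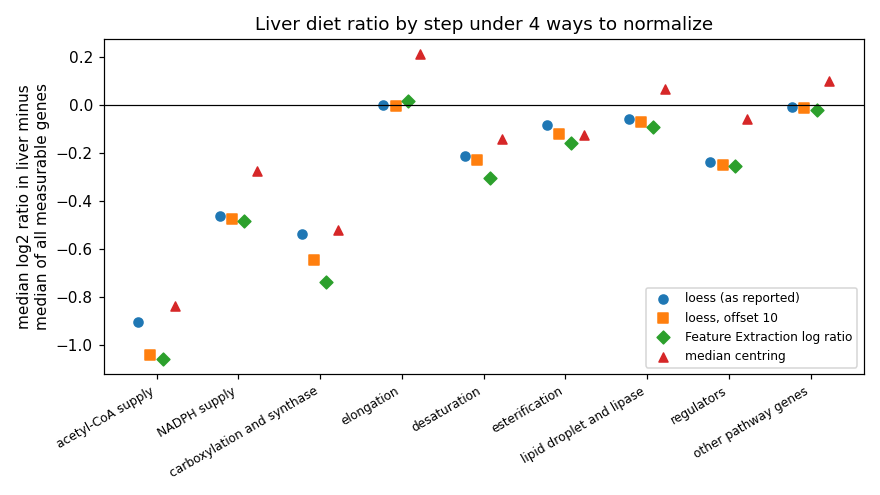
Median liver diet ratio of each step and of the other pathway genes, as the difference from the median of all measurable genes on the same scale, under 4 ways to normalize. Acetyl-CoA supply, NADPH supply and carboxylation and synthase lie furthest below 0 under all 4. Desaturation, esterification and regulators also lie below 0 under all 4, at -0.14, -0.12 and -0.06 with median centring. Elongation lies near 0 or, with median centring, above it.

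To show what lies upstream of the called genes, and of the synthase Fasn and the regulator Thrsp, the 250 bases before their starts were read from RefSeq on GRCm38.p6, where 31 of the 39 members had an entry. They are Acly at chr11:100528001-100528250 (minus strand), Acss2 at chr2:155517793-155518042 (plus strand), G6pdx at chrX:74428881-74429130 (minus strand), Fasn at chr11:120824548-120824797 (minus strand) and Thrsp at chr7:97417551-97417800 (minus strand). Capitals mark the CCAAT box, on either strand, and positions are given 5′ to 3′ of the gene.
Acly: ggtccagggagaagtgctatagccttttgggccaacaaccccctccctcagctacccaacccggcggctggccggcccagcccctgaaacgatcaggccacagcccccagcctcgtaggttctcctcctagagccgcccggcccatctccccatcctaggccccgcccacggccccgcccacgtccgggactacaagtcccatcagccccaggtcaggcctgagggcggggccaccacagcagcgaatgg
Acss2: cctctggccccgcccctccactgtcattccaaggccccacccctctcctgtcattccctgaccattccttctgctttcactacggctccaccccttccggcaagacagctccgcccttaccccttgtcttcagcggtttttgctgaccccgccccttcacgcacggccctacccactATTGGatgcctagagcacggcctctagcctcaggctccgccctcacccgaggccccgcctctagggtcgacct
G6pdx: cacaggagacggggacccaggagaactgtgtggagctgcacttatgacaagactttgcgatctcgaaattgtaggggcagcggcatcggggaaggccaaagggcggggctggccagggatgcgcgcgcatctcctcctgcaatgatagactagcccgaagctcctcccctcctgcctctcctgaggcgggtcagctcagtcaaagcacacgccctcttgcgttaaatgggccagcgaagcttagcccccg
Fasn: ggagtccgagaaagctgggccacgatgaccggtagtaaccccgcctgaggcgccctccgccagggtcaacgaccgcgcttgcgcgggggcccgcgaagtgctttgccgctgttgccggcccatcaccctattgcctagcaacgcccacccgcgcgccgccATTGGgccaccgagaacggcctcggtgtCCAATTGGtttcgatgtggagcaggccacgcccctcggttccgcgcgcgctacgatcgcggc
Thrsp: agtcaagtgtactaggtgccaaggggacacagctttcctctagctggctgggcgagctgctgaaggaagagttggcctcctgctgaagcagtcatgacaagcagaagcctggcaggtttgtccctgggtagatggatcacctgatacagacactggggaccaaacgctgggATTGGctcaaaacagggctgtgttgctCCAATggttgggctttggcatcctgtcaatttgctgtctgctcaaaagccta
The 5 letters CCAAT were found in the windows of 15 of 31 members, against 37.49% of the 27025 genes in the table, a gene counting when any of its promoters held them, and among the printed windows in Acss2, Fasn and Thrsp. In Fasn a pair of them overlap, on opposite strands. The sterol regulatory element searched as TCACNCCAC was in 1 of 31 members, Mlxipl, against 1.225% of genes, and the E-box CACGTG was in 4 (Slc25a1, Elovl5, Lpin2 and Mlxipl) against 6.86%. These are matches of letters on both strands within 250 bases, and they describe the windows only.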

How the data were processed

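Two-colour arrays of liver and spleen were scanned by the authors, and per the submitters' processing notes Agilent Feature Extraction 9.5.3.1 read the images. Per the file headers, the deposited files give mean and background intensity in each channel, processed intensity, flags, and the log10 ratio of red over green. The series value table was deposited as a ratio of red over green, with a minus sign on each value of the replicate 1 arrays, a sign of unstated purpose. Its column medians were -0.92, 0.92, -0.96 and 0.96 and it served only as a check. Within 0.05 log2 it matched the processed intensities for at least 99.9121% of spots.

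From the deposited intensities, background was corrected by normexp with an offset of 50 and log2 ratios were fitted by loess within each array (limma 3.58.1, R 4.3.3), with control spots (1639 of 45018) at weight 0, outlier spots (189 to 354 gene spots per array) left out and 0 spots saturated. Gene spots well above background were 55.2% to 66.8% in green and 66.5% to 72.8% in red. Levels were scaled between arrays by Aquantile. Ratios were turned to nucleoprotein over control, spots of a probe were averaged and the brightest probe over the 4 arrays stood for its gene. Of the probes, 22951 were named by RefSeq accession, 9768 by symbol or synonym through GRCm38.p6, and 8455 kept the file's name. Probe positions, on mm7, come from the files. Genes were named by rule: every member may be named, members called or of the largest ratio in a step get levels, and the 2 brightest of other lists. The members and lists were chosen with earlier results of these data known. Alternatives varied the background offset, normalization, log ratio, probe, filter, arrays and call, with limma over separate pools among them. A run of limma on simulated data gave both organs the same dye effect. It therefore cannot show what a dye effect that differs between organs does. The number of arrays limits the precision.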

Additional observations from a re-analysis of the deposited data

Results flagged for a closer look

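Both liver arrays lay below 0 and both spleen arrays above 0 for 3 of 32 members, against 2.62% of all 15315 genes measurable in both organs, which is a pattern of signs and was not tested as such. With the pools read as separate, limma gave adjusted p values for the difference of 0.0558 for Acly, 0.197 for Thrsp and 0.999982 for Mogat1. For Acly the diet ratio averaged -0.89 in liver and 0.07 in spleen, a difference of -0.96. For Thrsp it averaged -0.64 in liver and 0.05 in spleen, a difference of -0.69. For Mogat1 it averaged -0.08 in liver and 0.09 in spleen, a difference of -0.16, with a dim probe in both organs.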

How the results depend on the processing

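No paired analysis was possible because each ratio already pairs both diets within 1 array, and no further replicate block could be added to 2 arrays taken as 1 pool per diet. The 3 liver calls became 0 with median centring, 7 with the deposited Feature Extraction log ratios (adding Acaca, Gpam, Pnpla3 and Cidea), 5 when the mean of both arrays was used (adding Acacb and Thrsp) and 0 at 2-fold. With 1 array left out they numbered 4 to 9, 9 of them on array 2 alone, and liver calls higher numbered 0 to 1 (Elovl2 on array 1 alone). The mean over all probes kept Acly and G6pdx and lost the call of Acss2, whose mean was -0.92. The liver median of -0.19 was 0.047 with median centring and ran from -0.25 to -0.17 with 1 array left out, and the liver minus spleen median of -0.17 was -0.24 at an offset of 10, 0.051 with median centring and -0.29 with the deposited log ratios, and ran from -0.23 to -0.13 with 1 array left out. The spleen median ran from -0.04 to 0.01. With median centring the single liver arrays had all-gene medians of 1.14 and -0.73, so that Acly read 0.29 and -1.66. Over all genes, 51 liver calls lower became 107 with the deposited log ratios, 32 with median centring, 35 at 2-fold and 94 to 258 on 1 array, and 2 higher became 28 with the deposited log ratios, 29 to 198 on 1 array, 5 on the mean of both, 1 with limma and 0 at 2-fold or with median centring. Spleen calls of 42 lower and 38 higher became 80 and 102 with the deposited log ratios, 10 and 29 with median centring, 57 to 94 and 51 to 57 on 1 array and 18 and 21 at 2-fold, and the higher calls 65 at an offset of 10 and 19 with limma. The cause of these differences was not tested. Single-gene means ranged over the settings from -1.19 to -0.68 for Acly, -1.30 to -0.67 for Acss2, -1.17 to -0.74 for G6pdx, -0.57 to -0.10 for Fasn and -0.74 to -0.23 for Thrsp. At an offset of 10 the dim genes Gpam, Cidea and Pnpla3 moved in liver by more than their array SD, to -0.57, -0.58 and -0.31, as did Acly, to -1.02, and Agpat1, to 0.04.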

Other observations

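Among the other genes of the pathway, and chosen after their values were seen, those furthest from 0 in liver were Pklr, the liver pyruvate kinase, at -0.43 and -0.87, and Mid1ip1, a partner of Thrsp and activator of acetyl-CoA carboxylase, at -0.72 and -0.46. Tkfc, which phosphorylates glyceraldehyde from fructose, stood at -0.17 and -0.83 and Aacs, which activates acetoacetate for lipid synthesis, at -0.38 and -0.33. Gpat3, a glycerol-3-phosphate acyltransferase of the endoplasmic reticulum, stood above 0 at 0.39 and 0.34.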
